A study of Mus musculus with 10 samples.

Results

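The bipolar cell genes described here are 10 genes that retinal bipolar neurons are known to use, namely Vsx1, Isl1, Lhx4, Prdm8, Grm6, Gng13, Trpm1, Prkca, Pcp2 and Cabp5. They were taken as a fixed list of symbols, chosen with earlier results of these data known. All 10 matched 1 protein-coding gene each among the 21887 on the chromosomes covered by the data. The data are chromatin immunoprecipitation and sequencing (ChIP-seq) maps of Glast+ cells, isolated from retinas of C57BL/6 mice at postnatal day 28. Glast, the product of Slc1a3, is a glutamate transporter of Müller glia, so the bipolar genes are neuronal genes examined in a preparation selected for glia. The study mapped H3K4me3, H3K4me1, H3K27me3 and H3K9me3, each in 2 experiments (Exp1 and Exp2), without a treatment or a second cell population, and its 2 input libraries were not used here.

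Bipolar cells are the interneurons that carry the signal of rods and cones to the inner retina. Glutamate released by photoreceptors in the dark reaches the metabotropic receptor mGluR6 on ON bipolar cells, which acts through a G protein to close the cation channel TRPM1. Light lowers glutamate, the channel opens and the cell depolarises. The 10 genes fall into 3 roles. Vsx1, Isl1, Lhx4 and Prdm8 encode transcription factors of bipolar subtypes. Grm6, Gng13 and Trpm1 encode the receptor, a G protein gamma subunit and the channel of the ON cascade. Prkca, Pcp2 and Cabp5 encode a protein kinase C, a G protein modulator and a calcium-binding protein, all used as markers of bipolar types.

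H3K4me3 marks the starts of active or poised genes and H3K4me1 lies around promoters and at enhancers. H3K27me3 is placed by Polycomb complexes and H3K9me3 is a mark of heterochromatin. The authors deposited, for each library, a list of enriched stretches called islands, with 1 p-value per island. A gene was counted as marked at an end when islands of both experiments touched the window of 1 kb either side of the same annotated gene end. The same was done at its transcription starts as given by RefSeq, since the annotated end of 3 members lies far upstream of the listed start, by 9.7 kb for Lhx4, 13.7 kb for Prdm8 and 12.2 kb for Cabp5. Starts were known for all 10 members and for 17492 genes in all. Island lists hold no read counts, so the depth is unknown. A mark in few of the cells and a weak mark in many cannot be told apart in such pooled material. No test between groups of libraries was made, because comparing 2 libraries with 2 others by exact permutation, two-sided, cannot give a p below 0.333, and counts are set beside the share over all genes.

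The sequence before the start differs widely among the members. The 250 bases upstream of the first listed start are printed for 5 members because they span that range. Like those of the other members, they are touched by an H3K4me3 island described further on. They are written 5′ to 3′ in the direction of the gene, from RefSeq on GRCm38.p6 (the coordinates of mm10), with the letters TAATCC or their reverse complement GGATTA in capitals. TAATCC is the core recognised by the homeodomain factors Otx2 and Crx. The printed sequences include every member with these letters (Cabp5, Trpm1 and Isl1), so they do not show how frequent the letters are. Cabp5 lies at chr7:13397905-13398154 (plus strand), Trpm1 at chr7:64153585-64153834 (plus), Grm6 at chr11:50850435-50850684 (plus), Isl1 at chr13:116309689-116309938 (minus) and Prkca at chr11:108343889-108344138 (minus).
Cabp5: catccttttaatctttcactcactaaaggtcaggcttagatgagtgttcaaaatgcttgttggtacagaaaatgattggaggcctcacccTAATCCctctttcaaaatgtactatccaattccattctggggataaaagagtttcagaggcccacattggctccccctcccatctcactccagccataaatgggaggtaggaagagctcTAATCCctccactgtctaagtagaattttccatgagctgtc
Trpm1: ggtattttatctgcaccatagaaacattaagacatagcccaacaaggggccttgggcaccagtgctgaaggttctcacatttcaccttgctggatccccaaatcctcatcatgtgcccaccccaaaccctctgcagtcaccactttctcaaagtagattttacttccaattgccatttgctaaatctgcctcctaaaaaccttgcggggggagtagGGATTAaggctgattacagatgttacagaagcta
Grm6: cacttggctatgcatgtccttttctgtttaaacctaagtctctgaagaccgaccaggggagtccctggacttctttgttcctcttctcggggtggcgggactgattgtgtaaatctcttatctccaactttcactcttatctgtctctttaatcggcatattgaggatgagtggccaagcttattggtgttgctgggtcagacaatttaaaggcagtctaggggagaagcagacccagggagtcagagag
Isl1: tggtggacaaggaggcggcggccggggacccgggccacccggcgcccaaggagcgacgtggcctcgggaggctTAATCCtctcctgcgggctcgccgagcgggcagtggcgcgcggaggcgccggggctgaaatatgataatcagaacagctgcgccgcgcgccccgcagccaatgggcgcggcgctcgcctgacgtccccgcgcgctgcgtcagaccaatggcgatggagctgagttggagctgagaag
Prkca: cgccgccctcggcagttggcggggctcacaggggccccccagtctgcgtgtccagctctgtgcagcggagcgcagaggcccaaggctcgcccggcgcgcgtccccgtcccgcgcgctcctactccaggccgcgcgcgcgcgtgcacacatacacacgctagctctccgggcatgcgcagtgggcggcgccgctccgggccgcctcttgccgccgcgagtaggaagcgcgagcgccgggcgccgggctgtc

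Members ranged from no CpG at all to dense CpG in these 250 bases. The ratio of observed to expected CpG was 0 at Cabp5, 0.0576 at Pcp2, 0.0777 at Trpm1, 0.0931 at Gng13, 0.193 at Vsx1 and 0.285 at Grm6. It was 0.515 at Prdm8 and 0.564 at Lhx4, near the median of 0.536 over the 17492 promoters, and 1.05 at Isl1 and 1.06 at Prkca. The transcription factor gene Isl1 and the kinase gene Prkca therefore stood above 95.2% and 95.6% of promoters, while all 3 cascade genes stood below the median. The median of the 10 members was 0.239, against 0.752 for the 9566 promoters whose starts carried H3K4me3 without H3K27me3 and 0.667 for the 946 with both marks at the same start. TAATCC, searched on both strands, was found at 3 of the 10 members (Cabp5 with 2 copies, Trpm1 and Isl1 with 1 each) and at 5.95% of all promoters of the same length. TAATTA, a palindrome bound by many homeodomain proteins and also searched on both strands, was found at 0 members and at 4.45% of promoters. These matches describe letters in the sequence and not binding.

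All 10 bipolar genes carried H3K4me3 at a start in both experiments, and 6 of them carried H3K27me3 at the same start. The share of all genes with a start was 60.2% for H3K4me3, 21.6% for H3K27me3 and 5.41% for both marks together. The 6 were all 4 transcription factor genes, the receptor gene Grm6 and the calcium-binding protein gene Cabp5, whereas Gng13, Trpm1, Prkca and Pcp2 had H3K4me3 without a reproducible H3K27me3 island. H3K4me1 lay at a start of 7 members (all genes 54.4%), all but Trpm1, Pcp2 and Cabp5. H3K9me3 lay at a start of 1 member, Cabp5 (all genes 12.5%). H3K4me3 and H3K27me3 also shared a start at 4 of 8 amacrine, 2 of 5 ganglion cell and 1 of 7 Müller glia genes. They did so at 0 of 7 rod, 0 of 3 microglia and 0 of 3 endothelial genes of the lists described further on.

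Counted at annotated ends, H3K4me3 was at 8 members (all genes 58.6%), H3K4me1 at 7 (54.6%), H3K27me3 at 6 (23.3%), H3K9me3 at 3 (13.4%) and H3K4me3 together with H3K27me3 at 1 shared end of 4 (5.74%). The members lacking H3K4me3 at an end were Lhx4 and Cabp5, whose islands lie at starts inside the annotated gene. H3K9me3 at an end belonged to Isl1, Grm6 and Cabp5. Over the gene body H3K4me3 covered some part of all 10 (62.6% of genes), H3K4me1 of 8 (61%), H3K27me3 of 6 (24.2%) and H3K9me3 of 3 (16.1%). In Exp1 alone H3K9me3 lay over 5 bodies, adding Vsx1 and Prkca. When the less significant part of each list, above its median p-value, was left out, H3K4me3 lay at an end of 3 members, Prdm8, Prkca and Pcp2 (all genes 40.7%), and both marks at the same end of 0 (all genes 0.95%).

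**Figure D1:**
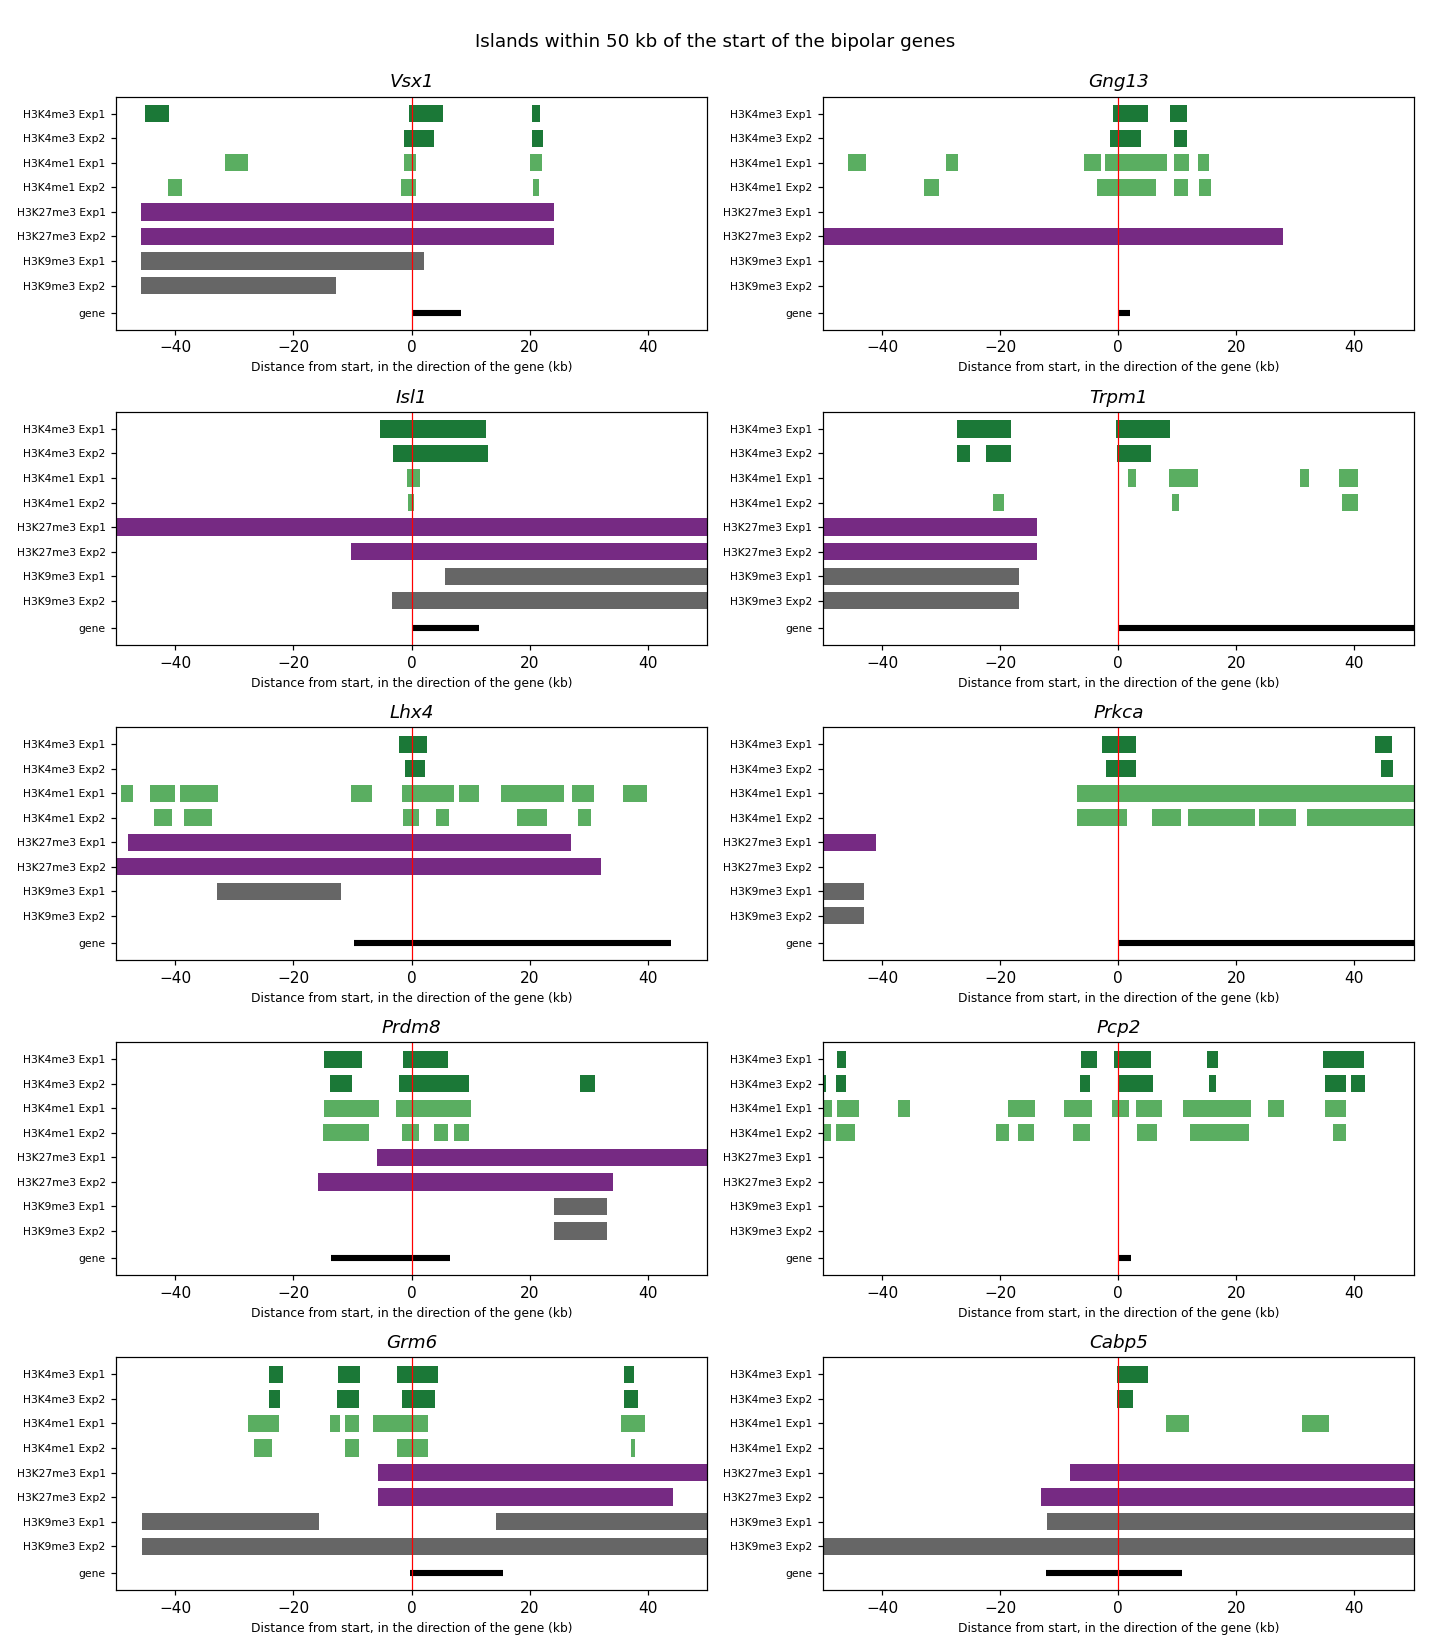
Islands of the 8 libraries within 50 kb of the first listed start of each of the 10 bipolar genes, drawn by distance from the start in kb in the direction of the gene, with dark green for H3K4me3, light green for H3K4me1, purple for H3K27me3, grey for H3K9me3, black for the annotated gene and a red line at the start. H3K27me3 of both experiments crosses the start of Vsx1, Isl1, Lhx4, Prdm8, Grm6 and Cabp5, ends 13.8 kb before that of Trpm1, and is present in Exp2 alone at Gng13.

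The 4 transcription factor genes shared H3K4me3, H3K4me1 and H3K27me3 at the start in both experiments. Isl1, a LIM-homeobox gene of ON bipolar, amacrine and ganglion cells (chromosome 13, 116298270 to 116309688), had the widest H3K4me3 island of the members, 18 kb in Exp1 and 16 kb in Exp2. It covered the whole gene of 11.4 kb and reached 5.31 and 3.11 kb upstream of the start. Its H3K4me1 islands were 2.2 and 1 kb wide and sat within 1.5 kb of the start. The H3K27me3 islands were 180 and 130 kb wide, and both began at the same position 119.7 kb beyond the start, far past the end of the gene. H3K9me3 islands of 84 and 90 kb covered the end of the gene in both experiments and the start in Exp2 alone. Their deposited p-values, 2.03e-11 and 3.83e-06, were higher than those of 90.3% and 92.7% of their lists.

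Vsx1, a homeobox gene of OFF cone bipolar cells (chromosome 2, 150680702 to 150689137), showed an H3K4me3 island, 5.8 kb wide in Exp1 and 5 kb in Exp2, that ran mainly into the gene, 5.34 and 3.74 kb downstream of the start against 0.463 and 1.26 kb upstream. H3K27me3 gave the same island of 70 kb in both experiments. That island also covered the 5′ end of the neighbour Acss1, an acetyl-CoA synthetase gene 12.5 kb away. H3K9me3 reached across the start of Vsx1 in Exp1 and stopped 12.9 kb upstream of it in Exp2, so the experiments differed at this gene.

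Lhx4, a LIM-homeobox gene of cone bipolar cells (chromosome 1, 155698031 to 155751726), showed H3K4me3 over 4.8 kb in Exp1 and 3.4 kb in Exp2, around its start. H3K27me3 islands of 75 and 85 kb surrounded it and also covered its annotated 5′ end and the 3′ end of Qsox1, a sulfhydryl oxidase gene 26.4 kb further. Their deposited p-values were 6.35e-144 and 1.14e-79, and 6.57% and 9.06% of the H3K27me3 islands in the respective lists had a lower one. These were the lowest ranks of H3K27me3 among the transcription factor members. H3K9me3 lay near Lhx4 in Exp1 alone, in an island of 21 kb that ended 12 kb upstream of the start.

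Prdm8, which encodes a PR-domain factor needed for bipolar cells (chromosome 5, 98167203 to 98187454), carried H3K4me3 in separate islands at its start and at its annotated 5′ end. The start island was 7.6 kb wide in Exp1 and 11.8 kb in Exp2, both with a deposited p-value listed as 0. The upstream island was 6.4 and 3.8 kb wide. H3K27me3 covered the start in islands of 120 and 50 kb, of which the second had a p-value of 2.59e-06, higher than that of 83.9% of its list. Prdm8 was the only transcription factor member with an H3K4me3 island of p listed as 0. Its H3K9me3 island of 9 kb, the same in both experiments, lay 24.1 kb downstream of the start.

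Within the ON cascade, the receptor gene had both marks in both experiments and the other 2 genes did not, although Gng13 had both in Exp2. Grm6, which encodes mGluR6 (chromosome 11, 50850369 to 50866208), carried at its start an H3K4me3 island, 7 kb wide in Exp1 and 5.6 kb in Exp2, with H3K4me1 over 9.2 and 5.2 kb. H3K27me3 began 5.68 kb upstream of the start in both experiments and ran for 205 kb in Exp1 and 50 kb in Exp2. The Exp2 island had a deposited p-value of 6.12e-08, higher than that of 77.1% of its list. The gene sits between the zinc finger genes Zfp879 (8.78 kb away) and Zfp454 (6.51 kb away), and the H3K27me3 islands of both experiments also covered an end of Zfp454. H3K9me3 flanked Grm6 in Exp1, in islands of 30 kb upstream and 60 kb from its 3′ end on. In Exp2 a single H3K9me3 island of 141 kb ran across the whole gene with a p-value of 0.00949, higher than that of 98.3% of its list.

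Gng13 (chromosome 17, 25717172 to 25719102), the shortest member with 1.93 kb, lay inside H3K4me3 islands of 6 and 5.2 kb and H3K4me1 islands of 10.4 and 10 kb. These islands also covered the 3′ end of Chtf18, a gene on the other strand that overlaps Gng13 by 0.073 kb, so they are not assigned to 1 gene alone. H3K27me3 covered Gng13 in Exp2, in an island of 95 kb, and was not listed within 50 kb of it in Exp1. The deposited p-value of that island was 1.02e-08, higher than that of 73.7% of its list. The share of the gene and its 50 kb surroundings under H3K27me3 was therefore 0% in Exp1 and 76.4% in Exp2.

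Trpm1, the channel gene (chromosome 7, 64153835 to 64269772), showed H3K4me3 over 9.2 kb in Exp1 and 5.8 kb in Exp2, in islands that began 0.434 and 0.234 kb before the start and ran 8.77 and 5.57 kb into the gene. H3K4me1 was absent from the window around that start in both experiments. It appeared from 8.57 kb (Exp1) and 9.17 kb (Exp2) downstream, with a further Exp1 island of 1.4 kb beneath the H3K4me3 island. H3K27me3 and H3K9me3 ended at the same positions in both experiments, 13.8 and 16.8 kb upstream of the start. Trpm1 had no repressive island over its 116 kb. Within the upstream domain, H3K4me3 islands lay between 27.2 and 18.2 kb before the start in both experiments, with p-values from 1.19e-10 to 0.0027 in Exp2 and 2.45e-11 in Exp1. They reached the 3′ end of the annotated gene Gm45988, 20.3 kb from Trpm1, and were chosen for mention after the values were seen.

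The 3 remaining members each had a different configuration. Prkca, which encodes the kinase that marks rod bipolar cells (chromosome 11, 107933387 to 108343888), showed H3K4me3 over 5.8 kb in Exp1 and 5.2 kb in Exp2, around the start and with p listed as 0 in both experiments. H3K4me1 covered the first part of the gene in an island of 68.4 kb in Exp1, wider than 99.9% of its list, and in several islands in Exp2. A further H3K4me3 island of 2.8 and 2 kb lay inside the gene, 43.5 and 44.5 kb from the start. H3K27me3 was listed nowhere over the gene of 411 kb, and H3K9me3 lay in it in Exp1 alone, over 9 kb.

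Pcp2, named for cerebellar Purkinje cells and also found in rod bipolar cells (chromosome 8, 3623369 to 3625547), was covered entirely by H3K4me3 islands of 6.2 and 6 kb with p listed as 0. The same islands covered an end of Pet100, a mitochondrial assembly factor gene that overlaps the 3′ end of Pcp2 by 0.867 kb, so the signal is shared with that gene. They reached 0.653 and 0.053 kb upstream of the Pcp2 start. No H3K27me3 or H3K9me3 island was listed within 50 kb of Pcp2 in any of the 4 libraries.

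Cabp5, which encodes a calcium-binding protein of rod bipolar and some cone bipolar cells (chromosome 7, 13385960 to 13408887), carried H3K4me3 at the border of a very wide repressive domain. Its H3K4me3 islands were 5.2 and 2.6 kb wide, began 0.154 kb before the start in both experiments and ran into the gene. H3K27me3 islands of 2.46 and 2.455 Mb and H3K9me3 islands of 2.47 and 2.51 Mb covered the start. Their left edges lay 8.15 and 13.2 kb (H3K27me3) and 12.2 and 66.2 kb (H3K9me3) upstream of it. The H3K9me3 island of Exp2 also covered an end of the neighbour Pla2g4c, 25.3 kb away. Islands of both marks in both experiments covered an end of the neighbour Bsph1, 42 kb away on the other side. The H3K27me3 islands ranked 8 of 7743 and 7 of 4105 by width, and the H3K9me3 islands 9 of 9690 and 9 of 5621.

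The domain held 18 protein-coding genes over its H3K27me3 extent, among them 8 Sult2a sulfotransferase genes, 6 Obox homeobox genes, 2 Bsph genes and 1 vomeronasal receptor gene. Not all 18 had a listed start, and Bsph1 was among those without. Of those with a listed start, Cabp5 was the only 1 with H3K4me3 there in both experiments, although 7 H3K4me3 islands in Exp1 and 12 in Exp2 lay in the domain. Its right edge lay 15.9 kb (H3K27me3) and 13.9 kb (H3K9me3) before the photoreceptor gene Crx in Exp1 and 25.9 kb before it for both marks in Exp2. These genes were chosen for mention after the values were seen. H3K4me1 near Cabp5 was listed in Exp1 alone, in islands of 4 kb at its 3′ end and 4.6 kb further downstream.

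**Figure D2:**
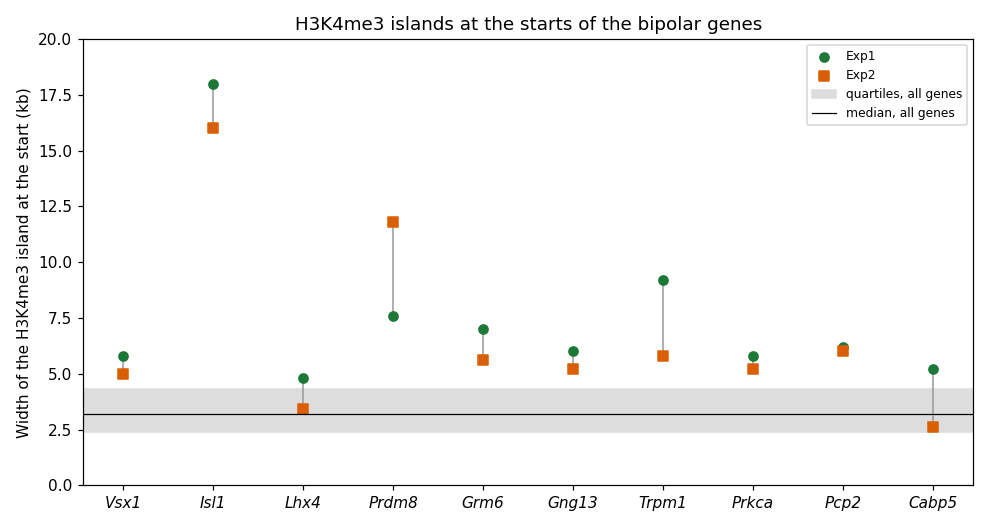
Width in kb of the widest H3K4me3 island at a start of each bipolar gene in Exp1 (circles) and Exp2 (squares), with the median (line) and quartiles (grey band) over all genes with such an island in both experiments. Isl1 stands highest at 18 and 16 kb, and only the Exp2 island of Cabp5, at 2.6 kb, lies under the median of 3.2 kb.

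H3K4me3 islands at the starts of the bipolar genes were wide. The mean of the 2 experiments ranged from 3.9 ± 1.84 kb (SD, n = 2) at Cabp5 to 17 ± 1.41 kb at Isl1, and the median over the 10 members was 5.85 kb, against 3.2 kb over 10523 genes with an island at a start in both experiments. All 10 members lay above that median. Islands over the first start were wider than the median of such islands at 7 of 7 Müller glia, 7 of 7 rod and 5 of 6 amacrine cell genes that had one. They were wider at 1 of 1 endothelial and 0 of 2 ganglion cell genes, and 0 microglia genes had one. The percentile among the 10523 genes was 67.5 for Cabp5, 71.4 for Lhx4, 98.2 for Prdm8 and 99.8 for Isl1. It was between 87.4 and 95.7 for Vsx1, Prkca, Gng13, Pcp2, Grm6 and Trpm1. The spread between experiments was largest at Prdm8, with 7.6 and 11.8 kb, and at Trpm1, with 9.2 and 5.8 kb. The extra width lay on the side of the gene, with a median of 4.48 kb downstream of the first start and 1.42 kb upstream, against 1.91 and 1.07 kb over all genes with an island there.

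Wide islands at 7 of the members had comparatively high p-values. The p-value of the start island exceeded the list median in both experiments at Vsx1, Isl1, Lhx4, Grm6, Gng13, Trpm1 and Cabp5, as it did at 19.3% of the 10306 genes with an island over the first start. Being also wider than the median of those islands, all 7 belonged to a group that held 3.6% of the genes, a rule set after the values were seen. At Cabp5 the p-values were 4.6e-20 and 3.75e-10, and 96.4% and 99% of genes had a start island with a lower one. At Isl1 the shares were 79.4% and 86.1% despite the width of the island. Prdm8, Prkca and Pcp2 had p-values listed as 0, and no island can rank lower. The pattern was not found at bipolar genes alone, since 4 of 7 Müller glia genes with a start island also met it, among them Rlbp1 and Apoe, as did 3 of 6 amacrine cell genes (Tfap2b, Gad1 and Slc32a1). It was met by 0 of 7 rod, 0 of 2 ganglion cell and 0 of 1 endothelial genes with a start island. In the bipolar lists described further on, members included, 4 of 9 cascade, 5 of 9 transcription factor and 4 of 8 type marker genes did. These counts hold the 7 members on whose values the rule was set, so they are not separate support for the pattern. They cannot be set beside the counts of the other cell types. The only ones that are not members were Gpr179 (cascade), Bhlhe23 and Neurod4 (transcription factors) and Scgn, Kcng4 and Erbb4 (type markers). These genes were named after the values were seen, and the lists were not tested against each other. P-values were used to rank islands within a list only.

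**Figure D3:**
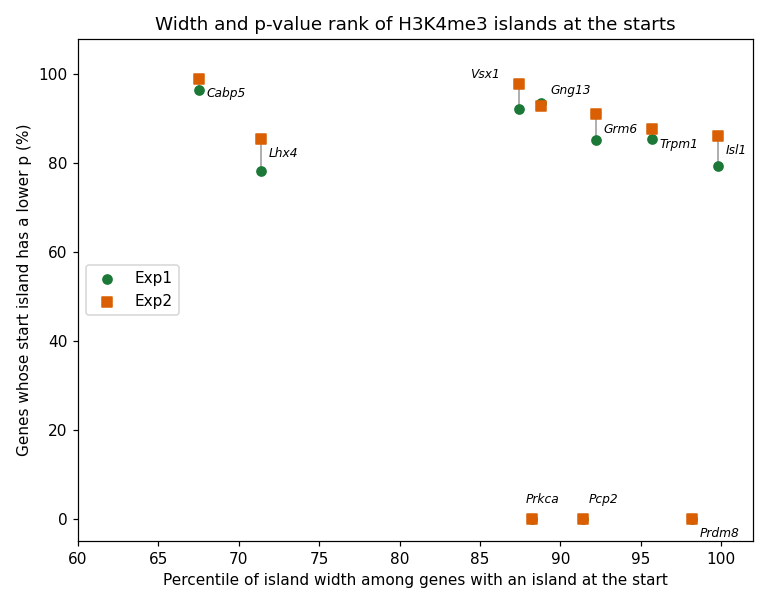
Percentile of H3K4me3 island width (x axis, mean of the experiments) against the percent of genes whose start island has a lower deposited p-value (y axis) for the 10 bipolar genes in Exp1 (circles) and Exp2 (squares). Vsx1, Isl1, Lhx4, Grm6, Gng13, Trpm1 and Cabp5 lie at 78.3% or above on the y axis, and Prdm8, Prkca and Pcp2 at 0.

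H3K27me3 islands filled much of the surroundings of 6 members. The mark covered a median of 49.4% of the gene with 50 kb either side over the 10 members, against 5.59% over all genes, whose upper quartile was 42.5%. The mean of the experiments was 82.2% at Isl1, 64.6% at Vsx1, 58.1% at Cabp5, 52.3% at Grm6, 52.1% at Lhx4 and 46.8% at Prdm8. It was 16.7% at Trpm1, 0.871% at Prkca and 0% at Pcp2, and at Gng13 the experiments disagreed as given above. The 6 members with H3K27me3 at the start had the 6 highest means. The same wide islands cross the start and fill these surroundings, so that match was largely fixed beforehand and is not a separate result. The median over the members was 28.4% when islands above the median p-value of their list were left out. H3K9me3 covered 83.1% at Grm6, 79.6% at Cabp5, 54.1% at Isl1 and 37.3% at Vsx1, and 15.4% or less at the other 6. With 20 kb either side in place of 50, the H3K9me3 median fell from 11.4% to 6.77% and the H3K4me3 median was 16.4% in place of 8.53%. The medians over all genes within 50 kb were 4.2% for H3K4me3 and 0% for H3K9me3.

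**Figure D4:**
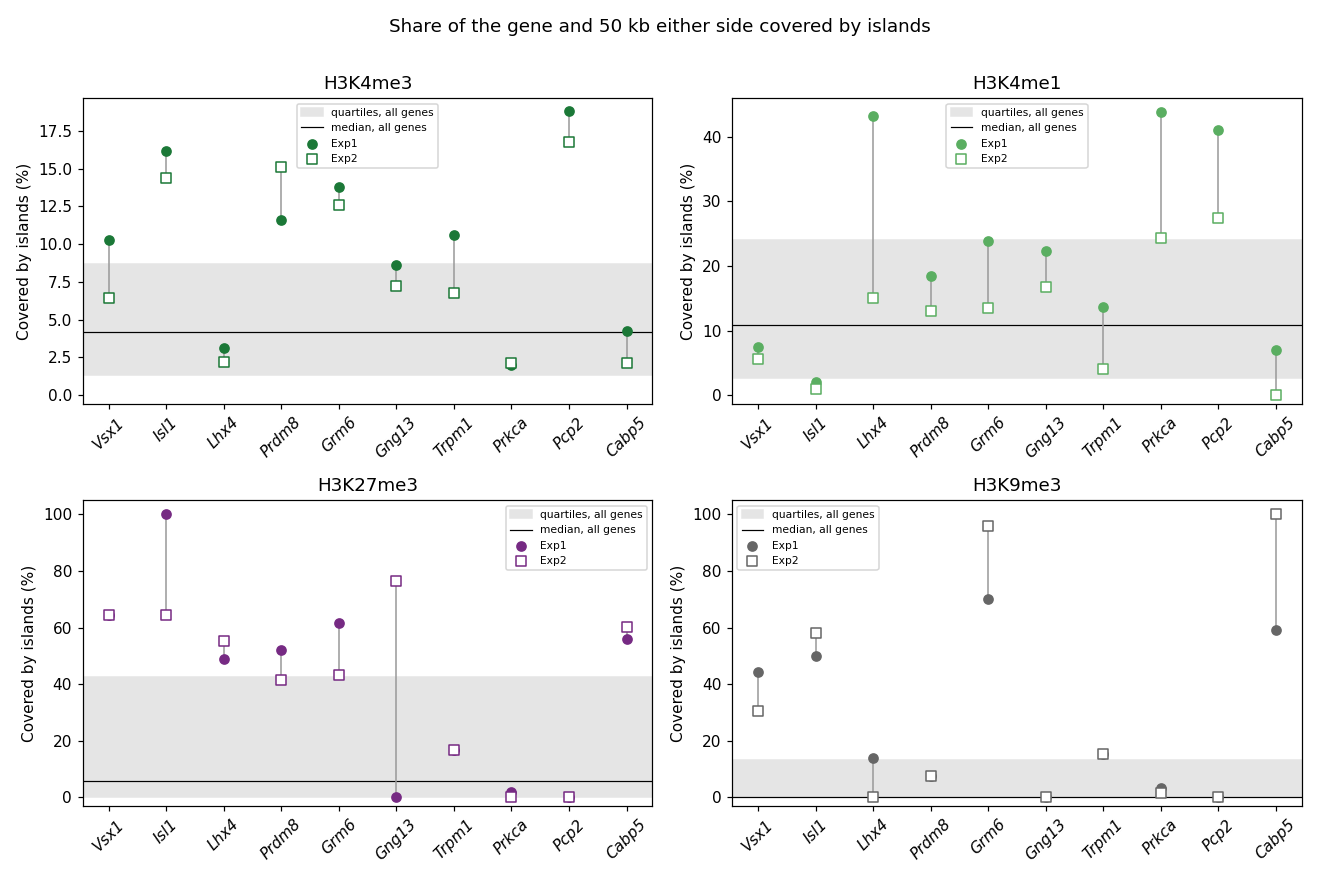
Percent of each bipolar gene with 50 kb either side covered by islands of the 4 marks, in Exp1 (filled circles) and Exp2 (open squares), with the median (line) and quartiles (grey band) over 21887 genes. H3K27me3 lies above the upper quartile of 42.5% in at least 1 experiment at 7 members and at or under 16.7% in both at Trpm1, Prkca and Pcp2.

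H3K4me1 away from H3K4me3 was most frequent around Prkca and Lhx4. Of the H3K4me1 islands of Exp1 within 50 kb of the gene, those found again in Exp2 and over 1 kb from any H3K4me3 island numbered 17 at Prkca, of which 15 lay in the gene, and 5 at Lhx4, of which 2 did. That is 3.33 and 3.25 per 100 kb. Gng13 had 2, and Grm6, Trpm1 and Pcp2 had 1 each. None was found around Vsx1, Isl1, Prdm8 and Cabp5. The median over the members was 0.663 per 100 kb, and over all genes 0.448. Exp1 had the higher H3K4me1 coverage around all 10 members, for example 43.3% against 15% at Lhx4 and 7% against 0% at Cabp5. The whole H3K4me1 list was also longer in Exp1, with 52342 islands (median width 3.2 kb) against 37200 (3 kb) in Exp2. The difference is therefore not particular to the members.

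Other bipolar genes were counted at annotated ends by the same rule. The lists were partly the members themselves, so the 28 entries that are not members are given. The shares over all genes to read them against were 58.6% for H3K4me3, 23.3% for H3K27me3 and 5.74% for both at 1 end. In the ON cascade all 9 such genes had H3K4me3 and 0 had a reproducible H3K27me3 island, including Gnao1 and Gnb3, which encode G protein subunits. Of the 12 cascade genes, members included, Grm6 had H3K27me3 in both experiments and Gng13 in Exp2 alone. Among the transcription factors 10 of 10 had H3K4me3 and 5 had H3K27me3 at the same end, such as Lhx3, a LIM-homeobox gene, while Otx2 and Sebox had H3K4me3 without it. Among the markers of bipolar types 7 of 9 had H3K4me3 and 3 had H3K27me3. Scgn, which encodes secretagogin, and Car8 had H3K4me3 without a reproducible H3K27me3 island, the synaptotagmin gene Syt2 and the channel gene Hcn4 had both marks, and Tacr3, a tachykinin receptor gene, had H3K27me3 with H3K4me3 in Exp1 alone.

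Lists for other retinal cells were counted at annotated ends in the same way, where the shares over all genes were 58.6% for H3K4me3 and 23.3% for H3K27me3. H3K4me3 lay at an end of 10 of 11 Müller glia genes, including Slc1a3 and Glul. H3K27me3 lay at 2 of the 11, Rlbp1 and Sox9, which had both marks at the same end. Of rod genes 8 of 10 had H3K4me3 and none had H3K27me3. Of amacrine cell genes 5 of 9 had H3K4me3 and 7 had H3K27me3, of ganglion cell genes 3 of 8 and 6, of microglia genes 0 of 6 and 2, and of endothelial genes 1 of 5 and 1. Microglia genes lacked a reproducible H3K4me3 island, and Csf1r and C1qa had one in Exp2 alone. At listed starts H3K4me3 lay at 7 of 7 Müller glia genes, 7 of 7 rod genes (Nr2e3 and Sag, which lacked it at an end, included), 6 of 8 amacrine, 2 of 5 ganglion cell, 0 of 3 microglia and 1 of 3 endothelial genes, beside 60.2% of all genes. The genes named here were chosen after the values were seen, and no difference between lists was tested. Whether bipolar cells themselves were among the cells isolated was not tested, and the marks at the bipolar genes cannot be assigned to 1 cell type.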

How the data were processed

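The analysis used 8 deposited lists of islands, 1 per ChIP library, for 4 marks in Exp1 and Exp2. Per the labels' protocols, each immunoprecipitation took 25000 cells and each library 500 pg of DNA, read single-end over 50 bp. Per the submitters' processing notes, the build was mm10 and the tools were SICER, bedtools 2.17, BWA 0.7.5a, SAMtools 1.3.1 and FastQC. The sources used here do not give the control or the settings of SICER. The authors deposited 1 p-value per island, without saying if it is adjusted. Widths were multiples of 200 bp for the H3K4 marks, 3000 bp for H3K9me3 and 5000 bp for H3K27me3, with smallest gaps of 800, 24000 and 35000 bp, so the repressive islands are coarser and joined over wider gaps, and touch a gene more readily.

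Genes and starts came from RefSeq tables of GRCm38.p6, with the 250 bases before the first listed start as promoter. Islands were intersected with windows in Python 3.11.15 with numpy 2.4.6, checked on simulated islands. Overlap was 1 bp or more. A value of both experiments is a mean with its SD. The animals behind each experiment are not named in the labels, so its spread may be technical. No test was run: counts stand beside the share over all protein-coding genes. All 10 members are named, with the nearest neighbour on each side within 50 kb where an island was shared. Gm45988 beside Trpm1 is named in addition, without a shared island. Of each list up to 4 genes per state are named, in list order. The members and lists were chosen with earlier results of these data known. Alternatives were each experiment alone, either experiment, other windows, coverage of 50%, islands with lower p-values and starts alone.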

Additional observations from a re-analysis of the deposited data

How the results depend on the processing

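Of 83 alternatives, 64 left a result within 1.5 times its count or within the spread between experiments, and 19 moved it. The cause was not tested. Leaving out islands above the median p-value of their list moved 8 results: H3K4me3 at an end to 3 members and over the body to 3, H3K9me3 at an end to 1 and over the body to 1, both marks at the same end to 0, and the median share of the surroundings to 1.08% for H3K4me3, 28.4% for H3K27me3 and 0% for H3K9me3. With starts alone H3K9me3 fell to 1 member. Over the body H3K9me3 lay at 5 members in either experiment, and at 3 to 5 when 1 experiment was left out. The same range was 49.2% to 50.4% for the H3K27me3 share and 11.4% to 14.5% for the H3K9me3 share. With 20 kb either side the shares of H3K4me3 and H3K4me1 were 16.4% and 23%, and those of H3K27me3 and H3K9me3 62.7% and 6.77%. With 100 kb they were 11% for H3K4me1 and 33.2% for H3K27me3. Taking both marks within each experiment (replicate block) left the count at 4 members. Windows of 500 bp and 2.5 kb and 50% coverage changed no count by more than 1.5 times. The depth of the libraries is unknown, so an island missing from 1 list, as H3K27me3 at Gng13 in Exp1, does not show that the mark is absent.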
